A study of Mus musculus with 39 samples.

Results

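The mRNAs of 54 genes for the nuclear pore complex and for nuclear transport were followed through sucrose gradients of mouse liver, out of 13230 gene symbols listed for both gradients. The rule took genes by symbol: the nucleoporins whose symbol is Nup and a number, the importins and transportins (Kpna, Kpnb, Ipo and Tnpo with a number), the exportins (Xpo with a number, and Xpot), and Pom121, Ndc1, Tpr, Rae1, Seh1l, Aaas, Ran, Ranbp1, Ranbp2, Rangap1, Cse1l and Nutf2. All 54 had a mean TPM (a gene's share of the transcripts in a library, corrected for length and scaled to a fixed total) of at least 1 over the libraries compared and were therefore among the 11754 genes tested. Kpna7 met the rule in gradient 2 alone, where its highest TPM was 1.25, at fraction 5, and where it was listed at 0 in 11 of 22 libraries, so it was not analysed further.

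The nuclear pore complex is a ring-shaped channel through the nuclear envelope. Its scaffold is built of the Y complex and the inner ring, is anchored by transmembrane nucleoporins, carries a central channel lined with FG repeats, and ends in cytoplasmic filaments and a nuclear basket. Importins carry cargo inward and exportins carry it outward, and the direction is set by the small GTPase Ran, which is kept in its GTP form in the nucleus and in its GDP form in the cytoplasm.

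In ATLAS-Seq a tissue lysate made without detergent is separated by velocity sedimentation and the RNA of each fraction is sequenced, so that each mRNA has a profile from light to dense fractions. The tissue was liver of wild-type FVB female mice, with no treatment, and the 2 gradients came from separate animals whose age was not given. The homogenate had been spun to remove nuclei before it was layered on sucrose, and ribosomal RNA was removed from each sample before stranded sequencing. Gradient 1 gave 17 libraries and gradient 2 gave 22. For comparison, fractions 4 to 7 were taken as the light zone, 10 to 13 as the middle zone and 16 to 19 as the dense zone, each with 8 libraries, 4 from each gradient.

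The gradient was the unit of replication, so n = 2 in every comparison of zones. The TPM values of a library summed to between 998099 and 999202, and 10532 to 12558 genes per library were over 1 TPM. TPM is a share of the library and keeps no read count, so the depth behind a value is unknown. The 6 hepatocyte markers looked for were all present, with a summed TPM of 25183 to 58534 in the light zone, 6076 to 13294 in the middle zone and 7803 to 19290 in the dense zone. Markers of other liver cells were far lower, with sums of 111 to 169 for Kupffer cells, 34.8 to 68.8 for endothelial cells, 29.3 to 75.3 for stellate cells, 2.69 to 8.85 for cholangiocytes and 258 to 496 for erythroid cells in the light zone. In the dense zone these sums were 42.8 to 53.6, 15.1 to 33.9, 9.17 to 19.9, 4.07 to 7.54 and 66.4 to 106, in the same order. Col1a1, Epcam, Hbb-bs and Hbb-bt, which belonged to those lists, were not listed for both gradients. The zones of a gradient came from the same lysate of all liver cell types, in which the level of an mRNA cannot tell fewer cells of a type from less RNA per cell.

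Together the 54 mRNAs made up 952 to 1426 TPM of a light library, 1517 to 1840 of a middle library and 1380 to 1926 of a dense library. Their centre of sedimentation, the mean fraction number weighted by TPM over the 17 fraction numbers that both gradients had, ranged from 8.97 to 14.8 in gradient 1 and from 9.86 to 15.6 in gradient 2. The median centre was 12.4 and 12.3, against 11.3 in both gradients for all genes tested. The profiles of most members were alike in the 2 mice: the median Pearson correlation of a member's TPM between the gradients, over those 17 fraction numbers, was 0.859, against 0.899 for all genes. Kpna4 had the lowest, 0.401, and its TPM covered much the same range at both ends of the gradients, 20.9 to 38.2 in the light zone and 25.2 to 37.8 in the dense zone.

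**Figure D1:**
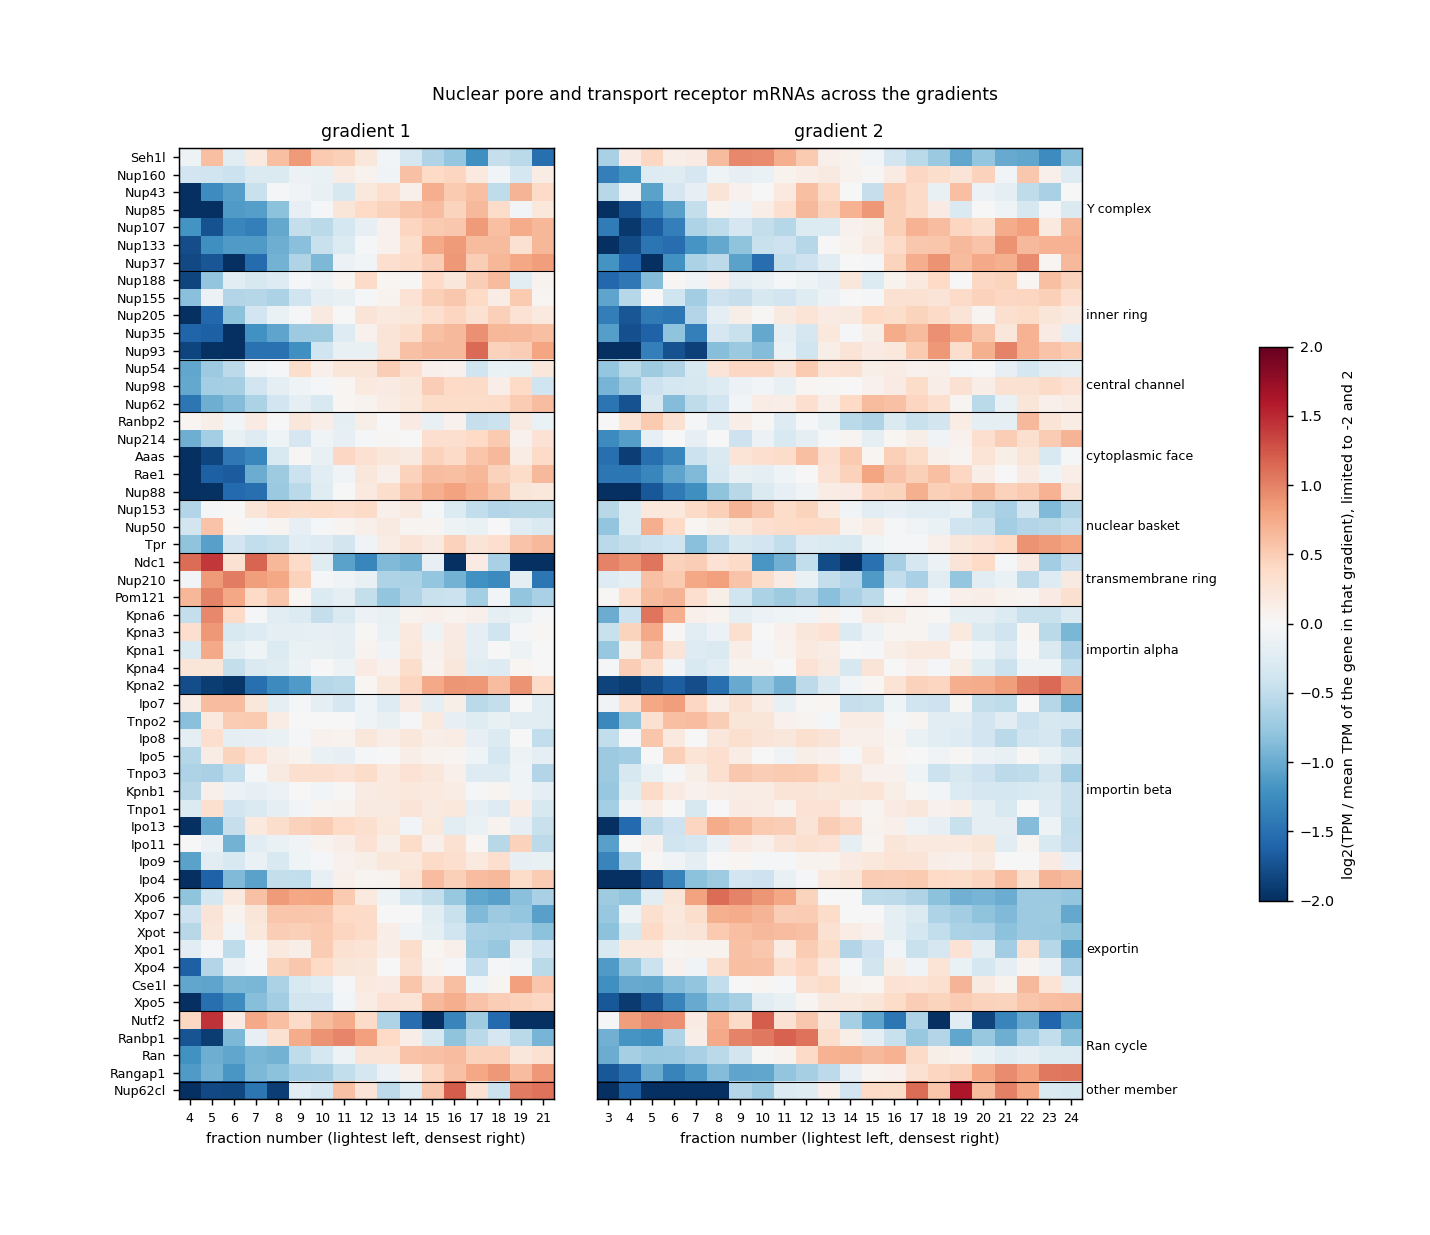
Each row is a member, grouped by role and ordered by centre of sedimentation, and each column a fraction of gradient 1 (left) or gradient 2 (right), with colour for the log2 ratio of its TPM to its own mean in that gradient. Most rows of the Y complex, inner ring and cytoplasmic face turn from blue to red toward dense fractions, Ndc1 and Pom121 are red in the light zone, and Xpo6, Xpo7, Xpot and Ranbp1 are red in between.

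The first comparison asked which of these mRNAs were enriched in dense over light fractions. Of the 54 members, 22 rose from the light to the dense zone and 8 fell, while 24 did not pass the test. Among all genes tested, 22.3% were higher in the dense zone and 39.6% were lower. The median difference of the members in mean log2(TPM + 1) was 0.48, and that of all genes was -0.43, so that in these units an mRNA at the all-gene median appears as a fall. With 0.49 in gradient 1 and 0.33 in gradient 2 the members' median lay on the same side in both mice, and 51 of 54 members differed in the same direction in both, as did 92.0% of all genes. With gradient as a block, 30 members rose and 13 fell, against 30.5% and 50.0% of all genes. After quantile normalization the all-gene median was -0.05, 30.5% of all genes were higher and 29.8% were lower, and 30 members rose and 4 fell.

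**Figure D2:**
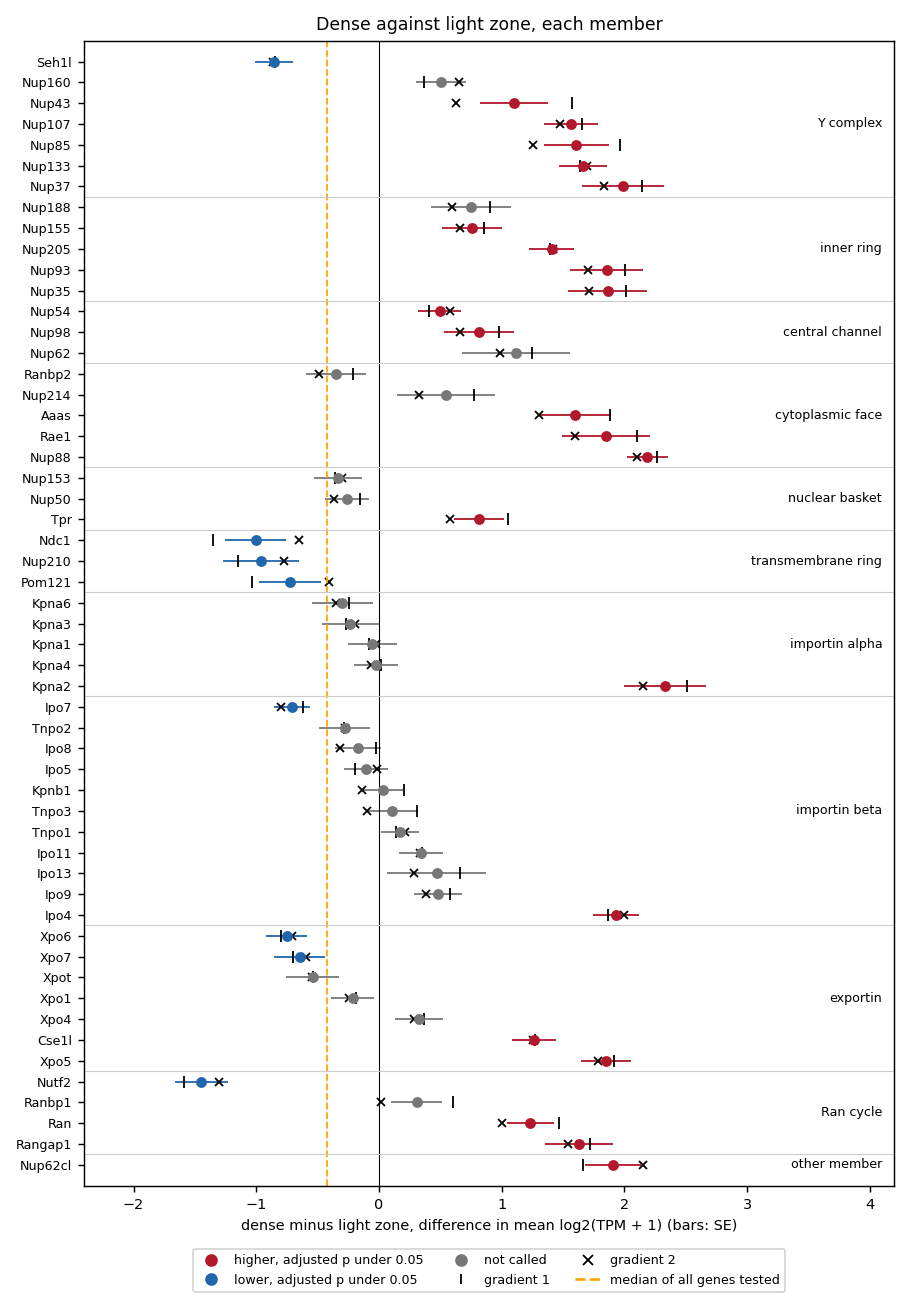
Dots give the dense minus light difference in mean log2(TPM + 1) for each member with its SE, coloured by call (adjusted p under 0.05), and the black marks give each gradient alone. Members of the Y complex except Seh1l, of the inner ring and of the central channel lie to the right of 0, the 3 transmembrane nucleoporins lie to the left, and the dashed line marks the median of all genes at -0.43.

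The Y complex is the outer scaffold of the pore. Of its 7 members in the rule, Nup37, Nup133, Nup85, Nup107 and Nup43 rose from the light to the dense zone, Seh1l fell, and Nup160 did not pass the test (0.51 ± 0.20, SE, on the log2 scale; adjusted p = 0.0743, and 0.0147 with the block). Nup107 had a lowest, median and highest TPM of 1.20, 1.89 and 2.98 in the 8 light libraries, of 3.10, 3.79 and 5.53 in the middle ones and of 6.17, 7.50 and 9.38 in the dense ones. The 3 zones did not overlap, and the dense minus light difference was 1.57 (SE 0.22, adjusted p = 0.00183). Nup133, its partner at the stem of the Y, went from a median of 3.04 TPM in light libraries (2.23 to 3.52) to 6.08 in middle (5.21 to 8.15) and 11.7 in dense libraries (9.51 to 13.9), again without overlap (1.66, SE 0.20, adjusted p = 0.00109). Nup37 was lower in every light library (0.505 to 3.93 TPM, median 2.50) than in any dense one (8.25 to 15.4, median 11.6), a difference of 1.99 (SE 0.33, adjusted p = 0.00350).

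Nup85, the most abundant of the risers in this complex, had already reached its level in the middle zone. It lay at 4.22, 8.44 and 14.0 TPM in the light zone, at 21.3, 28.9 and 37.5 in the middle zone and at 16.0, 26.7 and 42.7 in the dense zone, and middle and dense libraries overlapped. Its middle minus light difference was 1.66 (SE 0.27, adjusted p = 0.00490) and its dense minus middle difference was -0.06 (adjusted p = 0.906), which turned to 0.28 after quantile normalization. Nup43 rose by 1.10 (SE 0.28, adjusted p = 0.0157), with 1.57 in gradient 1 and 0.63 in gradient 2.

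Seh1l, a Y complex subunit that is shared with the GATOR2 complex of nutrient signalling, went the other way. It peaked at fraction 9 in both gradients, at 37.3, 43.9 and 66.1 TPM in the light zone, 42.0, 58.4 and 75.4 in the middle zone and 18.5, 26.3 and 31.5 in the dense zone. Every dense library was below every light and every middle library. The falls were 0.86 from light to dense (log2 difference -0.86, SE 0.16, adjusted p = 0.00485) and 1.12 from middle to dense (-1.12, SE 0.16, adjusted p = 0.00787), and the 2 mice gave -0.85 and -0.87 for the former.

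The inner ring holds the scaffold to the pore membrane. Of its 5 members Nup35, Nup93, Nup205 and Nup155 rose from light to dense, and Nup188, the paralogue of Nup205, was higher by 0.75 without passing the test (SE 0.33, adjusted p = 0.0931, and 0.00469 with the block). Nup205 stood at 1.89, 3.55 and 7.06 TPM in the light zone, 9.33, 10.6 and 11.5 in the middle zone and 11.3, 12.3 and 12.9 in the dense zone. Light libraries did not overlap with the others, and the dense minus light difference was 1.41 (SE 0.18, adjusted p = 0.00149). Nup155 showed a smaller difference, from 6.88, 8.72 and 12.5 TPM in the light to 13.3, 14.8 and 19.6 TPM in the dense zone (0.76, SE 0.24, adjusted p = 0.0371). This call was lost with the middle 2 fractions of each zone (adjusted p = 0.120). Nup93 and Nup35, at median levels of 1.48 and 2.34 TPM in light and 8.35 and 11.4 TPM in dense libraries, rose by 1.85 (SE 0.30) and 1.86 (SE 0.32).

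The central channel nucleoporins Nup98, Nup62 and Nup54 carry the FG repeats that transport receptors bind. Nup98 and Nup54 rose from the light to the dense zone, by 0.82 (SE 0.29, adjusted p = 0.0486) and 0.49 (SE 0.17, adjusted p = 0.0498), both just past the threshold. Nup98 lay at 12.4, 16.4 and 21.9 TPM in light, 18.6, 24.6 and 32.7 in middle and 22.5, 28.9 and 37.5 in dense libraries. Nup54 was highest in the middle zone, at 20.0, 22.1 and 26.3 TPM against 9.10, 12.2 and 17.7 in the light and 14.2, 18.5 and 19.9 in the dense zone, and every middle library lay above all the others (dense minus middle -0.34, adjusted p = 0.214, and 0.0435 with the block). Both calls were lost with the middle 2 fractions of each zone (adjusted p = 0.0645 for Nup98 and 0.0672 for Nup54), and that of Nup54 also without a filter on low values (0.0503) and without the 50 most abundant genes (0.0688). Nup62 was higher by 1.12 in the dense zone (SE 0.44, adjusted p = 0.0683, and 0.000685 with the block), and its exons overlap those of Il4i1 on the same strand. Nup62cl, a paralogue of Nup62 that is set apart from the other roles here, was scarce in the light zone (0 to 1.04 TPM, median 0.774) and rose to 2.03 to 9.95 TPM (median 5.17) in the dense zone, by 1.91 (SE 0.23, adjusted p = 0.00119).

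On the cytoplasmic face Nup88, Rae1 and Aaas rose from the light to the dense zone. Nup88, which anchors Nup214 on the cytoplasmic side (chromosome 11, 70943058 to 70969973, minus strand, mm10), lay at 8.30, 12.7 and 17.2 TPM in the light zone, 32.2, 38.3 and 48.2 in the middle zone and 44.9, 56.9 and 66.4 in the dense zone. The light libraries were all below the others, while middle and dense libraries overlapped. Its dense minus light difference was 2.19 (SE 0.17, adjusted p = 0.000378), with 2.26 and 2.11 in the 2 mice. Rae1, an mRNA export factor that binds Nup98, rose by 1.85 (SE 0.36, adjusted p = 0.00611) from 7.53, 11.8 and 19.8 TPM to 30.8, 43.0 and 62.4 TPM. Aaas, the WD-repeat protein aladin, rose by 1.59 (SE 0.29, adjusted p = 0.00514), from 2.44, 3.72 and 6.68 TPM to 9.43, 13.7 and 21.0 TPM, and its middle zone, at 11.3, 12.9 and 17.8 TPM, overlapped the dense one.

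The large filament proteins of the same face gave no call. Nup214 was higher by 0.55 in the dense zone (SE 0.40, adjusted p = 0.271, and 0.0172 with the block), although its TPM ran together with that of Nup88 along the gradients (Pearson correlation 0.860 over the 17 fractions of gradient 1 and 0.693 over the 22 of gradient 2). Ranbp2, a SUMO ligase and the docking site of Rangap1, was lower by 0.35 (SE 0.25, adjusted p = 0.255, and 0.0406 with the block), with 25.4 to 37.0 TPM in light and 18.9 to 37.6 TPM in dense libraries.

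In the nuclear basket only Tpr, the long coiled-coil protein of its filaments, passed the test. Its TPM was 14.9, 22.4 and 24.3 in light, 21.9, 25.4 and 35.0 in middle and 30.1, 37.0 and 47.0 in dense libraries, the last above all light ones (0.82, SE 0.20, adjusted p = 0.0154). Nup50 and Nup153 were lower in the dense zone by -0.26 (SE 0.18, adjusted p = 0.254) and -0.33 (SE 0.20, adjusted p = 0.186, and 0.0309 with the block) on the log2 scale, close to the all-gene median of -0.43. Nup50, a cofactor of importin alpha and beta, was at 20.5, 30.0 and 44.5 TPM in light, 29.6, 31.8 and 33.9 in middle and 18.8, 25 and 29.8 in dense libraries, which overlapped.

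The transmembrane ring was the role whose 3 members were all called lower in the dense zone, as were 39.6% of all genes. Their differences lay between the quartiles of all genes, -1.32 and 0.64. Ndc1 spans the pore membrane several times, and Pom121 and Nup210 cross it once. Ndc1 (chromosome 4, 107367784 to 107416346, plus strand, mm10) lay at 2.16, 3.73 and 4.65 TPM in light, 0.566, 0.908 and 1.48 in middle and 0.161, 1.39 and 2.34 in dense libraries. All middle libraries were below all light ones, but dense and light libraries overlapped. Its differences were -1.17 from light to middle (SE 0.25, adjusted p = 0.0122) and -1.0 from light to dense (SE 0.25, adjusted p = 0.0149), with -1.35 in gradient 1 and -0.65 in gradient 2 for the latter.

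Pom121 went from 7.22, 9.06 and 13.1 TPM in the light zone to 3.23, 3.79 and 5.77 TPM in the middle zone and 3.81, 5.57 and 6.32 TPM in the dense zone. Light libraries were above all the others (middle minus light -1.0, SE 0.25, adjusted p = 0.0220; dense minus light -0.72, SE 0.25, adjusted p = 0.0483, with -1.04 in gradient 1 and -0.41 in gradient 2). Nup210 was at 2.94, 5.88 and 7.50 TPM in light, 2.00, 3.07 and 5.66 in middle and 1.27, 2.62 and 3.73 in dense libraries, with overlap, and fell by 0.96 from light to dense (log2 difference -0.96, SE 0.31, adjusted p = 0.0362). Its middle minus light difference was -0.53 (adjusted p = 0.203, and 0.0238 with the block). From the middle to the dense zone Ndc1 and Pom121 differed in opposite directions in the 2 mice, by -0.15 and 0.48 for Ndc1 and by -0.05 and 0.59 for Pom121.

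The lower levels in the dense zone were called under 1 of 2 other scalings. Without the 50 most abundant genes all 3 members were still called lower, with a median difference of -1.08. Of all genes 41.0% were called lower under that scaling, and their median was -0.50. After quantile normalization the dense minus light differences were -0.31 for Ndc1, -0.34 for Nup210 and -0.27 for Pom121, with adjusted p of 0.299, 0.401 and 0.324, and none was called, whereas the middle minus light falls of Ndc1 and Pom121 passed the test under every scaling run. The call of Pom121 in the dense zone was also lost without a filter on low values (adjusted p = 0.0518) and with a pseudocount of 0.1 (0.0542). RNAs that are retained in nuclei (Malat1, Neat1 and Kcnq1ot1) were highest in the same light fractions, with a summed TPM of 179 to 782 in the light, 27.7 to 69.7 in the middle and 15.4 to 29.4 in the dense zone. Whether carried-over nuclear material had a part in the light-zone levels of these 3 mRNAs was not tested.

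**Figure D3:**
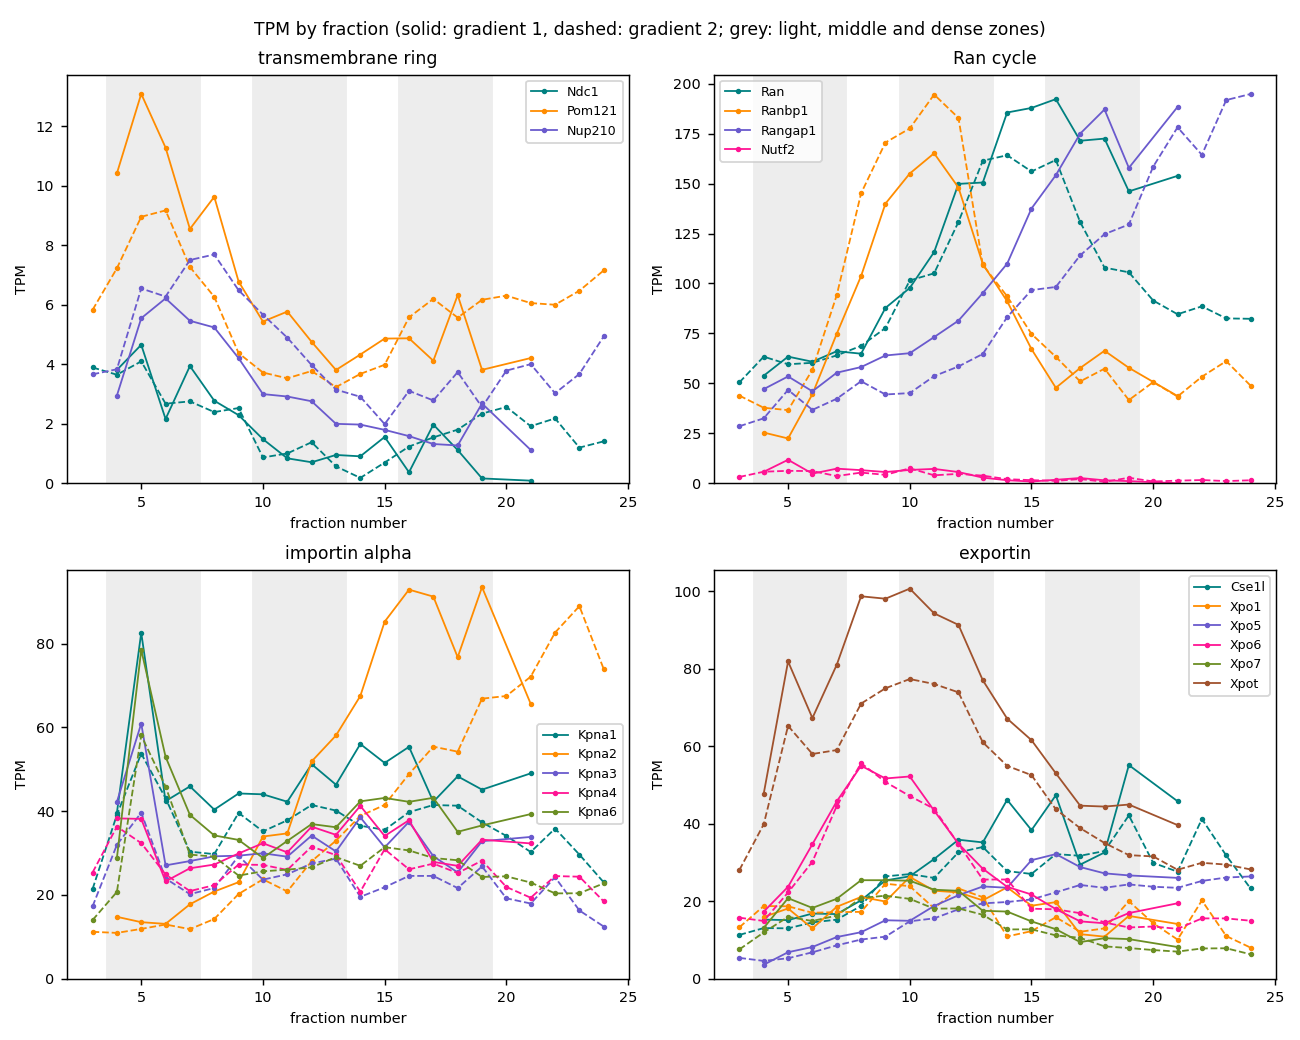
TPM of single members by fraction number in gradient 1 (solid) and gradient 2 (dashed), with the light, middle and dense zones in grey. The 3 transmembrane nucleoporins have their highest values at fractions 5 to 8 and lower ones in the middle zone, Ranbp1 peaks at fraction 11 and Rangap1 climbs to the end, Kpna2 departs from the other importin alphas, and Xpot, Xpo6 and Xpo7 crest between fractions 8 and 10 while Xpo5 stays high in dense fractions.

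Importin alphas are the adaptors that bind a classical nuclear localization signal and hand the cargo to importin beta. Of the 5 members, Kpna2 alone was called. Kpna2 (chromosome 11, 106988629 to 106999541, minus strand, mm10) lay at 10.9, 13.0 and 17.7 TPM in light, 20.8, 33.4 and 58.0 in middle and 48.8, 71.8 and 93.5 in dense libraries. Light libraries were below all the others, and the difference from light to dense was 2.33 (SE 0.33, adjusted p = 0.00203), with 2.51 and 2.15 in the 2 mice. Kpna1, Kpna3, Kpna4 and Kpna6 differed by between -0.30 and -0.02, with adjusted p from 0.333 to 0.921, and Kpna6 was called lower with the block (adjusted p = 0.0364). Kpna1 was at 30.3, 42.7 and 82.6 TPM in light and 37.3, 41.8 and 55.3 TPM in dense libraries. With quantile normalization the differences of Kpna1 and Kpna4 turned positive, 0.09 and 0.18.

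Kpna1, Kpna3 and Kpna6 instead had a sharp maximum at fraction 5 in both mice. Kpna1 rose from 39.6 TPM at fraction 4 to 82.6 at fraction 5 and returned to 42.4 at fraction 6 in gradient 1, and went from 39.1 to 53.7 and 43.1 TPM in gradient 2. Kpna6 went from 28.8 to 78.5 and 53.0 TPM in gradient 1 and from 20.7 to 58.0 and 45.9 TPM in gradient 2. Kpna3 went from 42.2 to 60.9 and 27.0 TPM in gradient 1 and from 31.9 to 39.6 and 23.9 TPM in gradient 2. Ipo8, Nup50 and Ndc1 also had their highest TPM at fraction 5 in both gradients, which makes 6 members of 54, or 11.1%, against 17.9% of all genes tested. The nuclear-retained RNAs summed to 387 TPM at fraction 4 and 388 at fraction 5 of gradient 1, without such a maximum, and were highest at fraction 5 of gradient 2, at 782 TPM, and their part in these maxima was not tested.

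Importin beta and its relatives bind cargo or adaptors and Ran directly. Of 11 members, Ipo4 rose from light to dense and Ipo7 fell, and 9 did not pass the test, 4 of which were called with the block (Ipo9, Ipo11 and Ipo13 higher, Tnpo2 lower). Ipo4, an import receptor for histones and ribosomal proteins, lay at 5.16, 12.4 and 19.2 TPM in the light, 25.4, 34.8 and 38.8 in the middle and 43.7, 48.2 and 55.7 in the dense zone. None of the 3 zones overlapped, and the difference was 1.93 (SE 0.19, adjusted p = 0.000637). Its profile ran with that of Nup88, with a Pearson correlation of 0.952 over the 17 fractions of gradient 1 and 0.963 over the 22 of gradient 2. Ipo7, an importin for ribosomal proteins and signalling kinases, lay at 83.2, 103 and 122 TPM in the light zone, above all libraries of the middle zone (59.2, 67.7 and 75.1) and of the dense zone (51.1, 58.9 and 81.5). Its falls were 0.71 to the dense zone (log2 difference -0.71, SE 0.15, adjusted p = 0.00825) and 0.59 to the middle zone (-0.59, SE 0.15, adjusted p = 0.0216).

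Kpnb1, the importin beta of the classical pathway, had similar levels in the 3 zones and was lower at the ends of gradient 2, with 42.5 TPM at fraction 3 and 53.3 at fraction 24. It lay at 55.6, 76.1 and 93.9 TPM in light, 78.5, 85.2 and 93.1 in middle and 60.1, 78.0 and 90.1 in dense libraries, and the dense minus light difference was 0.03 (SE 0.16, adjusted p = 0.873), with 0.20 in gradient 1 and -0.14 in gradient 2. Its sign turned to -0.02 without the 50 most abundant genes. Tnpo1 and Tnpo2, paralogous transportins, differed by 0.17 (adjusted p = 0.368) and -0.28 (adjusted p = 0.276, and 0.0367 with the block). That of Tnpo1 turned to -0.05 with the middle 2 fractions of each zone.

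Among the exportins, Cse1l, which returns importin alpha to the cytoplasm, and Xpo5, which exports microRNA precursors, rose from light to dense. Cse1l lay at 13.0, 15.1 and 16.8 TPM in light, 26.0, 31.7 and 35.9 in middle and 29.4, 32.7 and 55.1 in dense libraries (1.26, SE 0.18, adjusted p = 0.00195), and Xpo5 went from a median of 6.79 TPM (3.57 to 10.7) over 18.3 (14.8 to 23.8) to 25.5 (22.3 to 32.1), by 1.85 (SE 0.20, adjusted p = 0.000859). Light libraries did not overlap with dense ones for either gene.

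Xpot, Xpo6 and Xpo7 had their highest TPM at fractions 10, 8 and 9, the same in both mice, and their profiles were among the most repeatable of the members, with correlations between gradients of 0.981, 0.985 and 0.975. Xpo6, the exportin of actin and profilin, lay at 14.9, 26.9 and 45.8 TPM in light, 25.6, 39.1 and 52.2 in middle and 13.2, 15.8 and 17.9 in dense libraries. It fell by 1.21 from middle to dense without overlap (log2 difference -1.21, SE 0.16, adjusted p = 0.00756) and by 0.75 from light to dense (-0.75, SE 0.16, adjusted p = 0.00931). Xpot, the tRNA exportin and the most abundant of the family, lay at 39.8, 62.1 and 81.9 TPM in light, 61.0, 77.2 and 101 in middle and 31.9, 44.1 and 53.0 in dense libraries. Its fall from middle to dense was called (-0.94, SE 0.22, adjusted p = 0.0272), and its dense minus light difference of -0.54 missed the threshold (adjusted p = 0.0730, and 0.00311 with the block).

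Xpo7 fell by 0.94 from the middle to the dense zone (-0.94, SE 0.21, adjusted p = 0.0242) and by 0.65 from light to dense (-0.65, SE 0.21, adjusted p = 0.0370), and after quantile normalization neither call of Xpo7 nor the middle to dense call of Xpot passed the test. Xpo1, the exportin of leucine-rich export signals, had a less repeatable profile, with a correlation between gradients of 0.480 and its highest TPM at fraction 10 in gradient 1 and 9 in gradient 2. It lay at 12.9, 17.6 and 18.7 TPM in light, 18.2, 22.5 and 26.2 in middle and 10.8, 14.4 and 20.0 in dense libraries. Its dense minus middle difference was -0.57 (SE 0.17, adjusted p = 0.0582, and 0.00865 with the block). Xpo4 was highest at fraction 9 in both mice and rose from light to middle (0.64, SE 0.20, adjusted p = 0.0427). That call was lost without the 50 most abundant genes and with the middle 2 fractions of each zone. The dense minus light difference of Xpo4 was 0.33 (adjusted p = 0.199, and 0.0387 with the block). Its dense minus middle difference was -0.31 (adjusted p = 0.309), which turned to 0.05 after quantile normalization.

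Of the 4 mRNAs of the Ran cycle, Ran and Rangap1 rose from the light to the dense zone, Nutf2 fell and Ranbp1 did not pass the test. Ran itself (chromosome 5, 129020069 to 129024323, plus strand, mm10) lay at 53.8, 62.1 and 66.1 TPM in light, 97.8, 123 and 161 in middle and 106, 154 and 192 in dense libraries. The light zone was apart from the other zones, which overlapped, and the difference from light to dense was 1.23 (SE 0.19, adjusted p = 0.00271). In gradient 1 Ran was highest at fraction 16 and in gradient 2 at fraction 14. Rangap1, the GTPase-activating protein that makes Ran hydrolyse its GTP on the cytoplasmic side, was highest at the last fraction of each gradient, 21 and 24. It went from 32.5, 46.4 and 55.3 TPM over 45.1, 64.9 and 95.2 to 98.3, 142 and 187 TPM, dense libraries lay above all the others, and it rose both from light to dense (1.63, SE 0.28, adjusted p = 0.00371) and from middle to dense (1.08, SE 0.28, adjusted p = 0.0360).

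Ranbp1, a cytoplasmic partner of Ran-GTP that assists Rangap1, rose from the light to the middle zone. It peaked at fraction 11 in both mice, at 22.4, 41.2 and 94.2 TPM in the light zone, 109, 160 and 195 in the middle zone and 41.6, 57.5 and 66.3 in the dense zone. All middle libraries were above all light and dense ones (middle minus light 1.76, SE 0.21, adjusted p = 0.00215; dense minus middle -1.46, SE 0.21, adjusted p = 0.00818), while dense and light libraries overlapped (0.31, SE 0.21, adjusted p = 0.241). This last difference was 0.60 in gradient 1 and 0.01 in gradient 2.

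Nutf2, the carrier that brings Ran-GDP back into the nucleus, was listed at 3.59, 5.93 and 11.7 TPM in light, 2.80, 5.15 and 7.47 in middle and 0.694, 1.60 and 2.75 in dense libraries. It fell from light to dense by a log2 difference of -1.45 (SE 0.21, adjusted p = 0.00225). The value depends on how reads were divided with a copy. Nutf2-ps1, on chromosome 19, was listed as a gene of its own with a higher TPM, 32.2, 44.4 and 69.1 in light, 74.2, 118 and 144 in middle and 30.6, 36.0 and 46.2 in dense libraries. In the GENCODE annotation the coding sequences of the 2 genes, 384 bases each, differ at 0 bases, and over 876 aligned bases of the transcripts 4 differ. Whether reads from the coding sequence could be assigned to 1 of the genes was not tested. The first 30 bases of it, the same in both genes, are shown with the start codon in capitals. They lie in an exon on chromosome 8 for Nutf2 (plus strand) and on chromosome 19 for Nutf2-ps1 (minus strand) of GRCm38.
Nutf2, chr8:105875560-105875589: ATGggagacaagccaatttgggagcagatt
Nutf2-ps1, chr19:53588959-53588988: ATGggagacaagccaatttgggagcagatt

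Summed over both genes, TPM was 37.0, 50.3 and 76.4 in the light zone, 78.0, 125 and 152 in the middle zone and 33.2, 37.9 and 47.3 in the dense zone. All middle libraries were above all light and dense ones. The sum rose from light to middle by 1.15 (adjusted p = 0.00276), where Nutf2 alone gave -0.23 (adjusted p = 0.403), and the dense minus light difference shrank to -0.40 (adjusted p = 0.0584). The fall from middle to dense was called both for Nutf2 alone (-1.21, SE 0.21, adjusted p = 0.0123) and for the sum (-1.55, adjusted p = 0.00700). Another 10 members (Ipo4, Kpna2, Nup188, Nup35, Nup54, Ran, Ranbp1, Tnpo1, Xpo4 and Xpot) have annotated transcripts of high similarity elsewhere or over the same exons, none of which was listed in the tables.

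Between the light and the middle zone 21 members rose, 3 fell and 30 did not pass the test, against 23.5% of all genes higher and 24.1% lower. The median difference of the members was 0.43 and that of all genes was 0.05. Over the 36 members with a mean TPM of at least 10 it was 0.36, against 0.30 for all genes at that level. In all, 53 of 54 members had the same direction in both mice, as did 93.1% of all genes. The 3 that fell were Ndc1, Pom121 and Ipo7. With the block 35 rose and 5 fell, against 37.2% and 35.0% of all genes. The members that rose with the block alone were Ipo9, Ipo11, Ipo13, Nup62, Nup98, Nup153, Nup160, Nup188, Rangap1, Tnpo1, Xpo1, Xpo6, Xpo7 and Xpot (adjusted p from 0.00227 to 0.0496), and those that fell with it alone were Kpna6 (0.0117) and Nup210. Rises on the log2(TPM + 1) scale included those of Nup85 (1.66), Nup88 (1.63), Aaas (1.55) and Ipo4 (1.41). Of the 22 members that rose to the dense zone, Rangap1, Tpr, Nup98 and Nup155 did not pass the test from light to middle (adjusted p = 0.150, 0.208, 0.149 and 0.391), and with the block Rangap1 (0.00531) and Nup98 (0.0110) did.

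Between the middle and the dense zone 3 members rose and 6 fell without the block, and 14 rose and 11 fell with it. Without the block Rangap1, Nup107 (0.79, SE 0.22, adjusted p = 0.0447) and Nup133 (0.74, SE 0.20, adjusted p = 0.0397) rose, and Ranbp1, Nutf2, Xpo6, Seh1l, Xpo7 and Xpot fell. That is 3 and 6 of 54, against 4.79% of all genes higher and 22.5% lower. The median difference was 0.08 against -0.28 for all genes. Over the 36 members with a mean TPM of at least 10 it was -0.06, against -0.30 for all genes at that level. The call of Nup107 was lost without a filter on low values (adjusted p = 0.0511) and with a pseudocount of 0.1 (0.0560). With the block the shares of all genes were 14.1% higher and 39.3% lower. The members that rose with the block alone were Ipo4, Kpna2, Nup35, Nup37, Nup62cl, Nup88, Nup93, Nup155, Rae1, Tpr and Xpo5 (adjusted p from 0.00269 to 0.0465), and those that fell with it alone were Ipo13, Nup54, Nup153, Tnpo3 and Xpo1 (0.00519 to 0.0435). After quantile normalization 14 rose and 4 fell, against 10.4% and 13.7% of all genes.

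Members with a short annotated 3′ untranslated region (UTR) were more often the ones higher in the dense zone. In the GENCODE M21 transcript with the longest coding sequence, the 26 members with a 3′ UTR under 1000 bases had a median dense minus light difference of 1.33, with 17 higher and 2 lower. The 18 members with 2000 bases or more had a median of -0.19, with 2 higher (Nup133 and Nup155) and 3 lower (Ndc1, Seh1l and Xpo7). Across the 54 members Spearman's correlation of 3′ UTR length with the difference was -0.54, and it was -0.57 over the 50 without Nutf2 and the transmembrane ring. Across the 10819 genes tested that had an annotated length the correlation was -0.31, and genes under 1000 bases were higher in 32.9% of cases and lower in 27.4%, against 9.23% and 57.6% of those with 2000 bases or more. Genes are not independent replicates, and the correlations are a description. For coding length the correlation was -0.16 over the members and 0.09 over all genes. For whole transcript length it was -0.42 and -0.17.

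The importin alphas lay at both ends of that range. Kpna2 has an annotated 3′ UTR of 258 bases, and Kpna3, Kpna1, Kpna6 and Kpna4 have 2420, 3223, 4012 and 6940 bases. Likewise Nup88 has 177 bases, Nup37 has 141 and Ipo4 has 511, while Xpo7, with 11755 bases, has the longest of the members. Exceptions were Xpo6 and Nutf2, which fell with 574 and 412 bases, and Nup133 and Nup155, which rose with 2251 and 3483 bases.

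**Figure D4:**
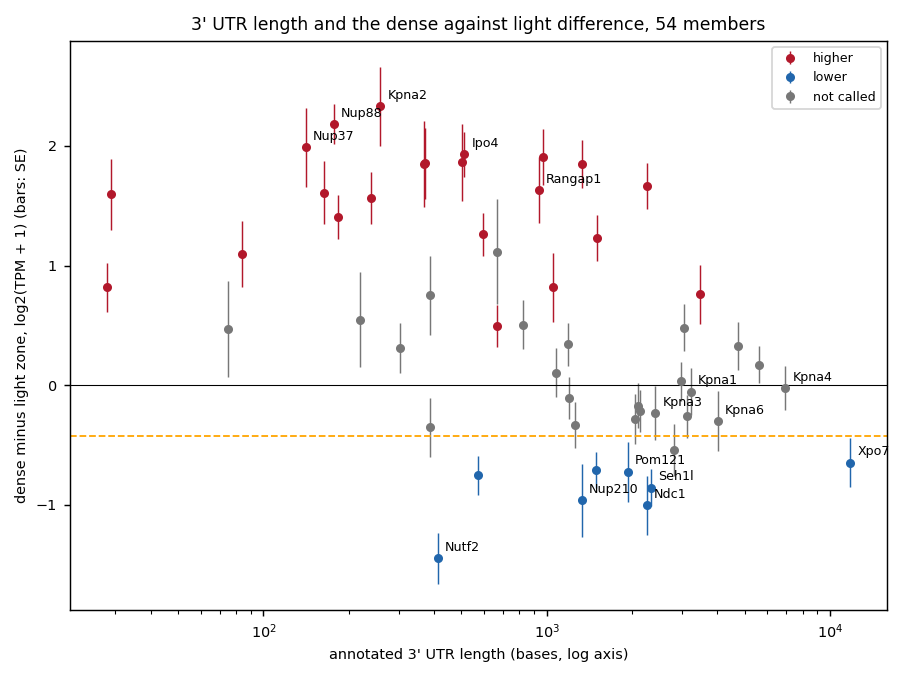
Annotated 3′ UTR length in bases (log axis) against the dense minus light difference in mean log2(TPM + 1), with SE, for the 54 members, coloured by call. Most of the 22 higher members lie at the short end, Kpna2 stands apart from the other importin alphas on both axes, and the dashed line marks the all-gene median of -0.43.

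Of 30 further genes of the pore and of RNA export that the rule did not take, 29 were tested. From light to dense 10 were higher, 4 were lower and 15 did not pass the test, against 22.3% and 39.6% of all genes. From light to middle 15 were higher and 14 did not pass the test, against 23.5% of all genes higher, and from middle to dense 5 were higher and 9 lower, against 4.79% and 22.5% of all genes. With the block 14 were higher and 5 lower from light to dense, against 30.5% and 50.0% of all genes. From light to middle 20 were higher and 1 lower, against 37.2% and 35.0%, and from middle to dense 7 and 12, against 14.1% and 39.3%. From light to dense the added calls were Nupl2 (adjusted p = 0.0328), Gle1 (0.0391), Rcc1 (0.00391) and Ranbp3 (0.00101), which were higher, and Eny2 (0.0130), which was lower, and from light to middle Ddx19b was the lower one (0.00836). Sec13, which is a Y complex subunit and a COPII coat protein, rose by 3.10 (SE 0.16, adjusted p = 0.000301). The export adaptor Alyref rose by 2.35 (SE 0.20) and the helicase Ddx39b by 2.27 (SE 0.18). The THO complex, which couples transcription to export, was not uniform: Thoc6 and Thoc5 rose by 2.84 (SE 0.29) and 2.05 (SE 0.20), Thoc7 differed by -1.36 (SE 0.16, adjusted p = 0.00120), and Thoc3 was called higher in the middle zone alone (middle minus light 1.42, SE 0.16; dense minus light 0.05, adjusted p = 0.818). The bulk mRNA export receptor Nxf1 rose by 1.56 (SE 0.39, adjusted p = 0.0151), while of its cofactors Nxt1 differed by 0.52 (adjusted p = 0.296) and Nxt2 by -1.43 (SE 0.19, adjusted p = 0.00154). Ddx19a and Ddx19b, near-identical helicases of the cytoplasmic face between which reads may have been split, differed by 0.92 (SE 0.19, adjusted p = 0.00747) and -1.54 (SE 0.29, adjusted p = 0.00541).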

How the data were processed

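RNA was measured in 39 fraction libraries of 2 gradients, 1 from each of 2 wild-type mice. The authors demultiplexed reads with bcl2fastq 2.16.0.10, quantified RefSeq transcripts of mm10 by pseudo-alignment with kallisto, and deposited 1 table of TPM by symbol per gradient, which keeps genes above 1 TPM in 1 or more fractions. The kallisto version and the summing of transcripts to genes are not given in the sources used here. The number of value columns that matched no sample was 0. TPM holds no counts, so no count model, counting interval or floor could be given, and precision is known only from the spread between gradients.

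Per gradient, log2(TPM + 1) was averaged over the 4 fractions of each zone, and the 6 zone means of every gene with a mean TPM of at least 1 over the 24 zone libraries were fitted together with limma 3.58.1 (R 4.3.3; lmFit, contrasts.fit, eBayes with trend), with Benjamini-Hochberg adjustment over 11754 genes, two-sided, at 0.05. Fold changes are on the log2(TPM + 1) scale and understate those of low genes. Fractions were not treated as replicates. The zones of a gradient come from 1 homogenate, and deviations from the zone means correlated between zones across genes (0.665 light with middle, 0.540 light with dense, 0.798 middle with dense), so gradient pairs the samples and blocked values are given beside results whose call they changed.

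The members, roles and gene lists were chosen with earlier results of these data known, and no list is independent support. All members were assigned to roles. Values were given for every member of the transmembrane ring and Ran cycle, the 2 members of highest mean TPM in each other role, and the 5 largest called rises and falls in each of the 3 contrasts with the same direction in both gradients. Other members named were chosen after their values were seen. Lengths and the Nutf2 sequences came from GENCODE M21 (GRCm38), and similar transcripts were sought with minimap2 2.31. Alternatives were the filter on low values, the pseudocount, 2 scalings, narrower zones, the gradient block, leaving out each gradient, other weights for the centres and, added after seeing the data, Nutf2 summed with Nutf2-ps1.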

Additional observations from a re-analysis of the deposited data

How the results depend on the processing

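Of 606 values of the 30 named members under the alternatives with a test, 549 kept their direction and their side of the threshold, 15 kept the direction and lost the call, 29 gained a call and 13 changed sign. The block and the other filters on low values used the same zone means, so under them a call could change but a direction could not. With gradient as a replicate block, 13 members fell in the dense against the light zone, 35 rose and 5 fell in the middle against the light zone, and 14 rose and 11 fell in the dense against the middle zone. The block called 43, 40 and 25 members in these comparisons, among them all 30, 24 and 9 called without it, and changed no other call. Over the 36 members with a mean TPM of at least 10 the dense against light counts were 14 higher and 4 lower (median 0.14). Of all genes at that level 30.8% were higher and 35.5% were lower (median -0.14). The middle against light counts were 13 and 1, against 34.5% and 20.4% of all such genes, with medians of 0.36 and 0.30. The dense against middle median turned to -0.056, against -0.30, and fewer members were tested under this filter. Quantile normalization gave 4 lower members and a median of 0.85 in the dense against the light zone, and 14 higher members and a median of 0.38 in the dense against the middle zone. Without the 50 most abundant genes the median was 0.31 in the middle against the light zone, and -0.07 for all genes. In the dense against the middle zone it was 0.17, and -0.23 for all genes. There 5 members were higher, against 6.66% of all genes. The middle 2 fractions of each zone gave a dense against middle median of 0.0058. Leaving out a gradient gave medians of 0.33 to 0.49 for dense against light, 0.39 to 0.51 for middle against light and 0.030 to 0.050 for dense against middle. A single gradient allows no test, and of the 180 values of named members 5 changed sign, none of them called with both gradients: Kpnb1 in the dense against the light zone (-0.14, gradient 2), and in the dense against the middle zone Aaas (-0.14, gradient 2), Ndc1 (-0.15), Nup85 (0.086) and Pom121 (-0.047, all gradient 1). Members named for a rise or fall had been chosen for the same direction in both gradients, so those values could not change sign here. Of the named members' centres of sedimentation, 52 moved by more than the SD between gradients with log2(TPM + 1) weights and 8 did not, and all 30 of gradient 2 moved with its 22 fractions.

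Among the 30 named members, sign changes under the alternatives with a test were, in the dense against the light zone, Kpna1 (0.090, quantile normalization) and Kpnb1 (-0.022 without the 50 most abundant genes, -0.13 with the middle 2 fractions). In the middle against the light zone they were Kpnb1 (-0.025) and Nup50 (-0.058) after quantile normalization, Nup50 without the 50 most abundant genes (-0.049) and with the middle 2 fractions (-0.20), and Nutf2 summed with Nutf2-ps1 (1.15). In the dense against the middle zone they were Ipo7 (0.16), Kpnb1 (0.10), Nup54 (0.025) and Nup85 (0.28) after quantile normalization, and Nup85 (0.024) without the 50 most abundant genes. None of these was called as reported, and the cause was not tested. With 2 gradients and no read counts, differences in members of low TPM could not be resolved beyond the spread between the mice.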
